A study of Sorghum bicolor with 9 samples.

Results

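This account follows the lipoxygenases and the TIFY proteins of sorghum leaves across a control soil and saline-alkali soils of moderate and severe stress. The members are all genes of the deposited table whose protein family label reads Lipoxygenase (12 genes) or Zim, the former name of the TIFY domain (19 genes), so 31 of the 35281 genes listed. The label alone decided membership and no measured value entered the rule, but the families were picked with earlier results of these data known. RNA sequencing measured transcripts in leaves of 4-leaf plants of Sorghum bicolor BTx623, the inbred wild-type line that serves as the reference genotype of the species. Control plants grew under normal conditions, moderate stress was saline-alkali soil with 3‰ salt at pH 8.1, and severe stress was saline-alkali soil with 5‰ salt at pH 8.1. Another tag of the stressed samples writes the same digits as percent, while the control soil has neither a salt content nor a pH in its label. Each group held 3 biological replicates, with 1 library each and 9 libraries in all.

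Lipoxygenases are iron-containing enzymes that add oxygen to polyunsaturated fatty acids of membranes. One class of them, working in the chloroplast, starts the path to jasmonate, a hormone that plants make after wounding, insect feeding and drought, while the other class feeds different oxidised lipids. TIFY proteins share a short protein-contact domain. Many of them are JAZ proteins, which hold back the transcription factors of the jasmonate response until the hormone marks them for destruction, and in Arabidopsis and rice many JAZ genes are themselves switched on by jasmonate. The family label does not tell which lipoxygenase class a gene belongs to, nor which TIFY genes encode JAZ proteins, so neither is assigned here.

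The libraries held 17792497 to 22449989 counts each. CPM is the count of a gene scaled to a common library size, and levels below are CPM normalised between libraries by the TMM method, with group means ± SD (n = 3 libraries), unless FPKM is named. On that scale a gene with no read may still be present at up to 0.152 to 0.159 CPM in control libraries, 0.100 to 0.124 CPM in moderate libraries and at most 0.286 CPM in severe libraries, the last in severe replicate 1 (3 counts, counting error only). The severe libraries needed unequal scaling. TMM factors were 0.904 to 1.02 in control libraries and 1.33 to 1.41 in moderate libraries, while the severe ones were 0.512, 0.858 and 0.973, the first of these being severe replicate 1. None of the leaf marker labels that were listed (small Rubisco subunit, chlorophyll a/b-binding protein, phosphoenolpyruvate carboxylase) occurs in the table, so the tissue label was not checked with them. A call means an adjusted p under 0.05 in edgeR's quasi-likelihood test over all 22356 genes that passed a filter on low counts, and each log2 change carries its standard error (SE). In bulk leaf RNA, fewer cells of a type and less RNA per cell cannot be told apart, and this holds for every result below.

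All 12 lipoxygenases passed the filter, and 15 of the 19 TIFY genes did. A single lipoxygenase, Sobic.004G078600 (chromosome 4, 6461422 to 6465436, minus strand), supplied most lipoxygenase transcripts in control and moderate leaves, and it fell sharply under severe stress. Its level was 4235, 4111 and 3154 CPM in the control libraries, 2815, 3786 and 3608 CPM in the moderate libraries, and 164, 169.9 and 67.5 CPM in the severe libraries. Control and moderate libraries overlapped, and every severe library lay far below all 6 of them. The fall in severe against control was -4.84 on the log2 scale (SE 1.06, adjusted p = 7.49e-05). In moderate against control the change was -0.17 (SE 0.45), which was not called (adjusted p = 0.826).

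The deposited FPKM values, which divide counts by gene length, allow members to be set beside each other. For all 31 members that length equals the genomic span, introns included. On this scale Sobic.004G078600 made up 96.3 to 96.4% of the summed lipoxygenase FPKM in control libraries, 93.3 to 95.2% in moderate libraries and 8.71 to 17.8% in severe libraries. The summed FPKM of the 12 genes was 1062, 1021 and 796 in control libraries, 733, 954 and 919 in moderate libraries, and 422, 242 and 185 in severe libraries. The sum of the other 11 ran the opposite way. It was 28.8 to 38.2 FPKM in control, 45.8 to 54.1 FPKM in moderate and 169 to 375 FPKM in severe libraries. Lipoxygenases as a family took 0.335 to 0.436% of all counts in control, 0.413 to 0.568% in moderate and 0.0908 to 0.108% in severe libraries. Every severe library had a lower sum than any control or moderate library, and most of it came from the other 11 genes.

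**Figure D1:**
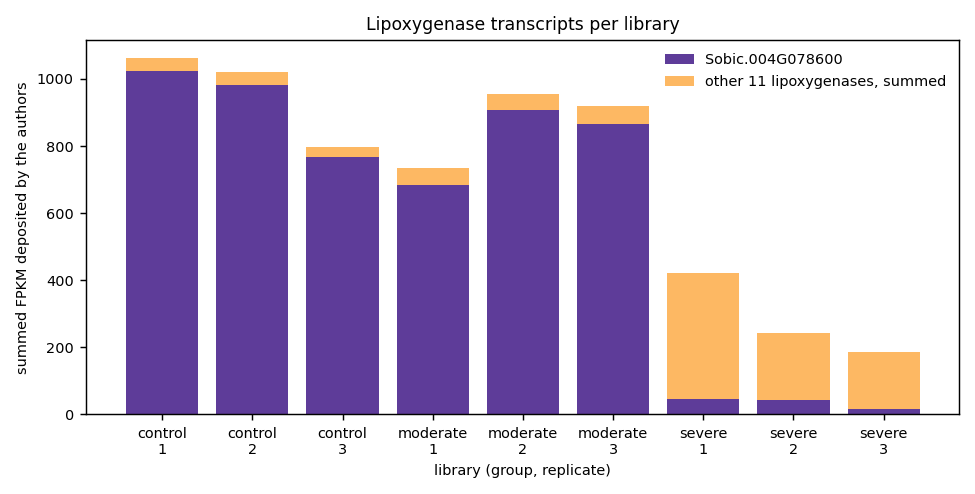
Summed FPKM deposited by the authors for the 12 lipoxygenases in each of the 9 libraries (bars start at 0), split into Sobic.004G078600 and the other 11 genes. Sobic.004G078600 fills 93.3 to 96.4% of the bar in control and moderate libraries and 8.71 to 17.8% in severe libraries.

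Under severe stress 8 of 12 lipoxygenases rose against control and 2 fell, so 10 were called, beside 66.5% of all genes tested (31.6% higher and 34.9% lower). The median log2 change of the 12 was 2.42, against -0.19 over all tested genes. Both comparisons use the same control libraries, so their values are only set side by side. Under moderate stress 2 rose and 1 fell, beside 17.1% of all genes (8.94% higher and 8.17% lower), with a median of 0.49 against 0.01. A fit of control and moderate libraries alone called 4 higher and 1 lower, and its calls over all genes are not given here. Scaling by total counts alone moved the median of all tested genes to 0.49 in moderate and -0.49 in severe against control. In moderate it called 3 lipoxygenases higher and 0 lower, beside 3707 higher and 704 lower among all 22356 genes tested.

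**Figure D2:**
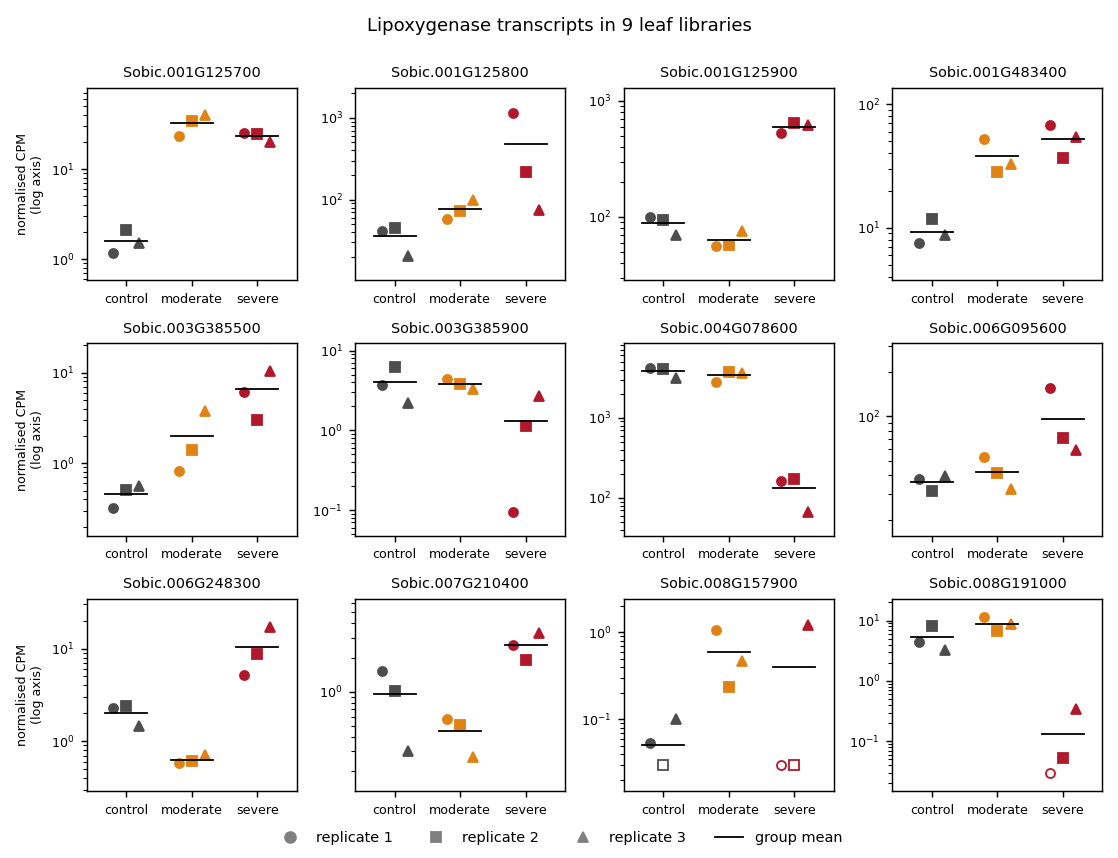
Normalised CPM (log axis) of each lipoxygenase in the control, moderate and severe libraries, with 1 symbol per library, a line at the group mean and open symbols for libraries with a count of 0. Sobic.001G125700 and Sobic.001G483400 are higher in all moderate and severe libraries than in any control library, while Sobic.004G078600 and Sobic.008G191000 are low in severe libraries only.

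Sobic.001G125700, Sobic.001G125800 and Sobic.001G125900 lie side by side on the minus strand of chromosome 1, with gaps of 2.22 and 6.57 kb and no other gene between them. Their positions are 9896488 to 9900431, 9902653 to 9909771 and 9916344 to 9921119. With all libraries, Sobic.001G125700 was called higher than control in both soils, while Sobic.001G125800 and Sobic.001G125900 were called higher in severe soil only. Neighbouring copies can share near-identical stretches, so the split of reads between them is uncertain, as it is for the other rows of neighbours below.

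Sobic.001G125700 was the lipoxygenase that rose most in moderate leaves. It had 1.16, 2.13 and 1.52 CPM in control libraries, 23.2, 33.9 and 39.5 CPM in moderate libraries, and 25.2, 24.4 and 20.0 CPM in severe libraries. Both stressed groups lay above every control library and overlapped each other. The log2 rise was 4.32 in moderate (SE 0.84, adjusted p = 0.000735) and 3.85 in severe against control (SE 0.77, adjusted p = 2.72e-05). The difference of severe against moderate, -0.47, had a 95% interval of -1.08 to 0.13 and was not called (adjusted p = 0.165). Under total-count scaling it was -1.30 and called (adjusted p = 0.01). That interval leaves room for a level in severe leaves that is lower or slightly higher than in moderate leaves.

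Sobic.001G125800, the middle neighbour, had 41.7, 44.9 and 20.6 CPM in control libraries, 57.5, 73.5 and 98.9 CPM in moderate libraries, and 1153, 218 and 74.8 CPM in severe libraries. The 3 severe libraries were spread widely, and the lowest of them lay within the moderate range. The log2 rise in severe against control was 3.75 (SE 1.22, adjusted p = 0.00472), or 2.03 without severe replicate 1 (adjusted p = 0.00598). The moderate change was not called (adjusted p = 0.385), except in the fit of control and moderate libraries alone (1.13, adjusted p = 0.0227).

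Sobic.001G125900 was steady within each soil. It had 99.6, 94.8 and 69.5 CPM in control libraries, 56.7, 57.5 and 75.7 CPM in moderate libraries, and 532, 644 and 624 CPM in severe libraries. Control and moderate overlapped, and severe stood above both. The rise in severe against control was 2.77 on the log2 scale (SE 0.58, adjusted p = 4.78e-05). On the FPKM scale it was the highest lipoxygenase in severe leaves, at 130.2 ± 5.78, ahead of Sobic.001G125800 at 75.9 ± 96.4 and Sobic.004G078600 at 35.4 ± 16.8 (SD, n = 3). The order of the first 2 differed between libraries, since Sobic.001G125800 led in severe replicate 1 with 187 FPKM while Sobic.001G125900 led in severe replicates 2 and 3 with 137 and 126 FPKM.

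Sobic.001G483400 (chromosome 1, 75467368 to 75473615, minus strand) rose in both soils. It had 7.51, 11.7 and 8.69 CPM in control libraries, 52.2, 28.5 and 33.0 CPM in moderate libraries, and 67.4, 36.7 and 54.3 CPM in severe libraries. No control library reached a stressed one, and the stressed groups overlapped. The log2 rise was 2.02 in moderate (SE 0.53, adjusted p = 0.00539) and 2.50 in severe against control (SE 0.60, adjusted p = 0.000221). The 95% interval of severe against moderate was -0.19 to 1.15, so the level in severe leaves may be slightly lower or up to about that much higher.

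Sobic.006G248300 (chromosome 6, 58764200 to 58767760, minus strand) was the one member called in opposite directions. It had 2.28, 2.38 and 1.47 CPM in control libraries, 0.581, 0.605 and 0.702 CPM in moderate libraries, and 5.14, 8.70 and 17.2 CPM in severe libraries. The 3 groups did not overlap, with moderate lowest and severe highest. Genes called in opposite directions in the 2 soils, and also called between them, were 2.21% of all tested genes, and 0.608% were lower in moderate and higher in severe like this one. The change was -1.69 in moderate (SE 0.61, adjusted p = 0.0396) and 2.34 in severe against control (SE 0.68, adjusted p = 0.00183). The moderate call was lost on leaving out any 1 control or moderate library (adjusted p = 0.0608 to 0.131), under total-count scaling (log2 change -1.21, adjusted p = 0.204) and by limma on log2(FPKM + 1) (-0.41 on that scale, adjusted p = 0.267). The rise in severe leaves stayed called in each of those fits.

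Sobic.003G385500 (chromosome 3, 69796879 to 69800694) had 0.317, 0.507 and 0.556 CPM in control, 0.830, 1.41 and 3.78 CPM in moderate, and 6.09, 3.04 and 10.5 CPM in severe libraries. Its rise in severe against control was 3.81 (SE 1.07, adjusted p = 0.0013), and its moderate change of 2.11 missed the threshold (adjusted p = 0.0619). That change was called under total-count scaling (adjusted p = 0.0408), in the fit of control and moderate libraries alone (adjusted p = 0.0286) and by DESeq2 (adjusted p = 0.0126). Leaving out severe replicate 2 or 3 also brought it past the threshold (adjusted p = 0.0493 and 0.0438). Sobic.003G385900, 26.5 kb away with 3 genes between, was not called in any comparison by edgeR with all libraries. Its severe libraries, at 0.0952, 1.12 and 2.66 CPM, reached into the control range of 2.22 to 6.14 CPM. Without severe replicate 3 it was called lower in severe than in control leaves (log2 change -2.50, adjusted p = 0.02) and than in moderate leaves (-2.46, adjusted p = 0.0225), and DESeq2 called the first of these too (adjusted p = 0.0452). With all libraries, limma on log2(FPKM + 1) called it lower in severe than in control leaves (adjusted p = 0.033) and than in moderate leaves (adjusted p = 0.0354).

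Sobic.006G095600 averaged 36.0 ± 4.32 CPM in control, 42.1 ± 10.5 CPM in moderate and 95.5 ± 52.7 CPM in severe leaves. Its severe libraries, at 156, 71.4 and 59.1 CPM, all lay above the other groups, and the log2 rise against control was 1.41 (adjusted p = 0.00812), or 0.85 without severe replicate 1 (adjusted p = 0.0102). Sobic.007G210400 averaged 0.951 ± 0.618 CPM in control, 0.451 ± 0.163 CPM in moderate and 2.60 ± 0.688 CPM in severe leaves. Its call in severe against control sat at the threshold (log2 change 1.45, adjusted p = 0.0499) and was lost on leaving out any library but control replicate 1 (adjusted p = 0.0547 to 0.128), under total-count scaling (adjusted p = 0.135), with no filter on low counts (adjusted p = 0.0646) and in the fit of those groups alone (adjusted p = 0.0747). Its 3 severe libraries, at 2.57, 1.92 and 3.30 CPM, nevertheless all lay above the control libraries.

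The second lipoxygenase to fall, Sobic.008G191000 (chromosome 8, 62495797 to 62499472, plus strand), had 4.34, 8.22 and 3.24 CPM in control libraries, 11.5, 6.63 and 8.69 CPM in moderate libraries, and 0, 0.0534 and 0.347 CPM in severe libraries. The severe libraries held 7 reads of it in all. The log2 change against control was -5.11 (SE 1.30, adjusted p = 0.000425), and control and moderate overlapped. Sobic.008G157900 stayed near the floor in most libraries, with 3 counts over control, 47 over moderate and 21 over severe, all 21 of them in severe replicate 3, and it was not called in any comparison. Without severe replicate 3, which leaves no severe read, it was called lower in severe than in moderate leaves (adjusted p = 0.0169). The same fit called it higher in moderate than in control leaves (adjusted p = 0.0455).

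Among TIFY genes the moderate soil moved a single member past the threshold. Of 15 tested, 1 rose and 0 fell, beside 17.1% of all genes. The median log2 change was 0.49, against 0.01 for all tested genes. Total-count scaling called 4 higher and 0 lower, beside 3707 higher and 704 lower among all 22356 genes tested. A fit of control and moderate libraries alone called 5 higher and 1 lower. The fit of all groups without severe replicate 1 also called 5 higher and 1 lower. How many of all genes those last fits called is not given here, so their counts are not read as particular to TIFY genes.

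The riser was Sobic.002G214800 (chromosome 2, 60694460 to 60696521, minus strand). It had 5.93, 10.8 and 6.82 CPM in control libraries, 32.1, 34.2 and 39.5 CPM in moderate libraries, and 66.7, 22.7 and 31.7 CPM in severe libraries. Both stressed groups lay above all control libraries. The log2 rise was 2.17 in moderate (SE 0.62, adjusted p = 0.00902) and 2.36 in severe against control (SE 0.64, adjusted p = 0.000929). Severe against moderate gave 0.19, with a 95% interval of -0.60 to 0.98. Like the lipoxygenases Sobic.001G125700 and Sobic.001G483400, Sobic.002G214800 was called higher than control in both soils.

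Under severe stress 10 of 15 TIFY genes rose against control and 2 fell, beside 66.5% of all genes called (31.6% higher and 34.9% lower). Their median log2 change was 2.31, against -0.19 over all tested genes. Total-count scaling gave the same split of 10 and 2, beside 5497 higher and 7888 lower among all 22356 genes tested. The members called, with their sizes, appear in the plot of changes below, and 10 of the 12 calls held when any single library was left out.

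**Figure D3:**
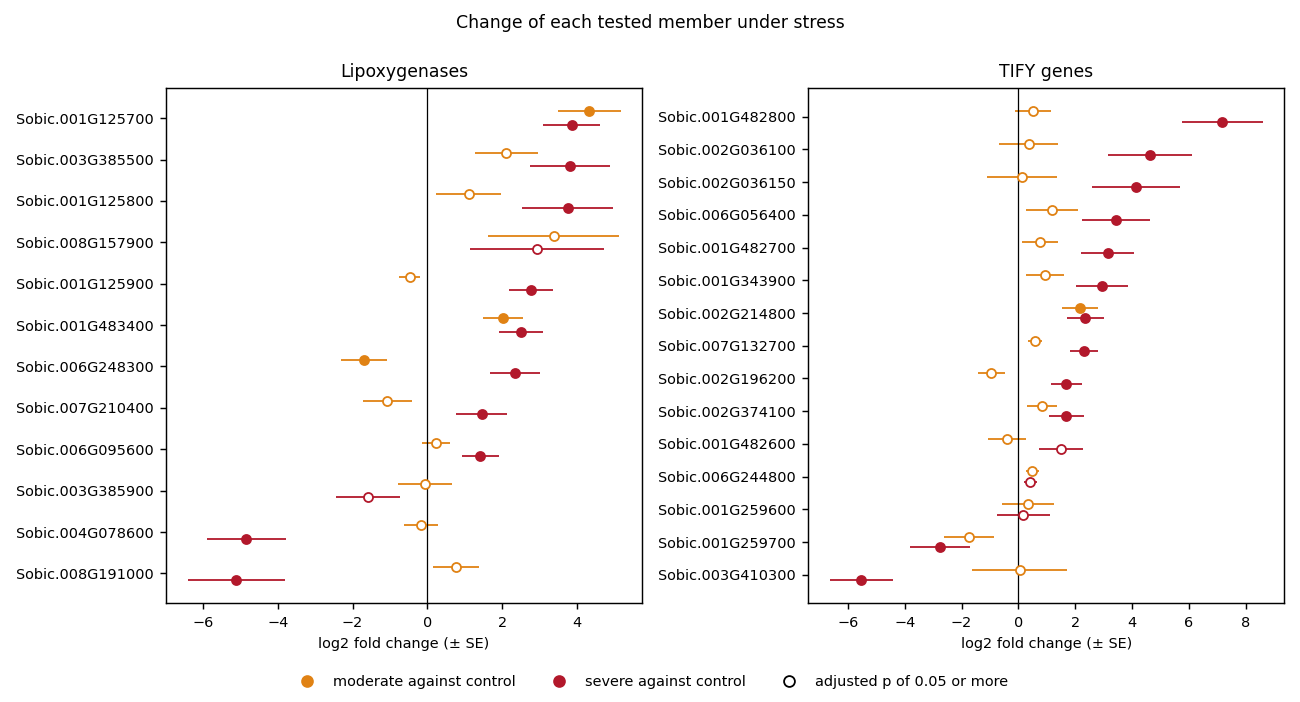
Log2 fold change ± SE of each tested member in moderate against control (upper point of each pair) and severe against control (lower point), with filled points for an adjusted p under 0.05. Of the lipoxygenases 3 points are filled for moderate and 10 for severe, and of the TIFY genes 1 and 12.

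Sobic.001G482800 (chromosome 1, 75429377 to 75432763, plus strand) rose most. It had 0.370, 0.152 and 0.101 CPM in control libraries, 0.249, 0.437 and 0.201 CPM in moderate libraries, and 46.6, 20.0 and 25.4 CPM in severe libraries. It was barely detected outside the severe soil, where its reads summed to 1303, against 12 over the control libraries. The log2 rise in severe against control was 7.17 (SE 1.43, adjusted p = 2.6e-05).

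It is the last of 3 TIFY genes in a row on chromosome 1, after Sobic.001G482600 (75415876 to 75416893) and Sobic.001G482700 (75423136 to 75425280), with gaps of 6.24 and 4.10 kb. The lipoxygenase Sobic.001G483400 lies 34.6 kb further on, with 5 other genes between. Sobic.001G482700 had 18.6, 8.52 and 4.04 CPM in control libraries, 20.4, 20.7 and 11.8 CPM in moderate libraries, and 163, 68.3 and 43.0 CPM in severe libraries. Every severe library exceeded every other one, with a log2 rise against control of 3.14 (SE 0.93, adjusted p = 0.00223).

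Sobic.001G482600 was the TIFY gene with the highest mean FPKM in each soil, at 84.0 in control, 63.2 in moderate and 269 ± 271 (SD, n = 3) in severe leaves. By mean CPM, which does not divide by length, Sobic.002G196200 was highest in control (101) and severe leaves (325). Sobic.006G244800 was highest by that measure in moderate leaves (124). The control libraries of Sobic.001G482600 disagreed, at 58.1, 43.2 and 163 CPM. Moderate libraries had 78.1, 57.8 and 63.4 CPM and severe libraries 514, 129 and 103 CPM. The highest control library lay above 2 of the severe ones. In severe against control it was not called (log2 change 1.50, adjusted p = 0.0729), and it was called without control replicate 3 (log2 change 2.27, adjusted p = 0.0213), without severe replicate 3 (1.86, adjusted p = 0.0314) and by DESeq2 (1.69, adjusted p = 0.0294). Without severe replicate 1 the change was 0.39 (adjusted p = 0.502).

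Sobic.007G132700 (chromosome 7, 55342328 to 55345325, minus strand) had closely spaced libraries in control and moderate soil. It had 14.3, 14.0 and 13.6 CPM in control libraries, 18.8, 21.5 and 22.9 CPM in moderate libraries, and 70.6, 53.9 and 83.7 CPM in severe libraries. The 3 groups followed the salt content without overlap. The log2 rise in severe against control was 2.31 (SE 0.48, adjusted p = 4.5e-05), and the moderate change of 0.59 was not called (SE 0.25, adjusted p = 0.0832). That change was called on leaving out any 1 severe library (adjusted p = 0.0359 to 0.0487), under total-count scaling (1.07, adjusted p = 0.0404), in the fit of control and moderate libraries alone (adjusted p = 0.00687) and by DESeq2 (adjusted p = 0.0327).

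Sobic.002G036100 and Sobic.002G036150 are neighbours on the minus strand of chromosome 2, 7.48 kb apart. Sobic.002G036100 had 1.16, 0.558 and 0.152 CPM in control, 1.04, 0.370 and 1.00 CPM in moderate, and 36.3, 2.40 and 7.98 CPM in severe libraries. Sobic.002G036150 had 1.01, 0.710 and 0 CPM in control, 1.04, 0.471 and 0.368 CPM in moderate, and 24.6, 4.43 and 1.62 CPM in severe libraries. In both genes severe replicate 1 was several times the other severe libraries. Their log2 rises in severe against control were 4.62 (adjusted p = 0.00415) and 4.14 (adjusted p = 0.0142). Without severe replicate 1 they were 3.04 (adjusted p = 0.00998) and 2.39, the second no longer called (adjusted p = 0.0647).

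The other 4 TIFY risers were expressed in every soil. Sobic.001G343900 had 39.4, 38.7 and 26.7 CPM in control, 75.0, 71.7 and 53.8 CPM in moderate, and 589, 135 and 79.3 CPM in severe libraries. Sobic.002G196200 had 97.4, 75.7 and 129 CPM in control, 50.2, 58.0 and 47.9 CPM in moderate, and 544, 263 and 168 CPM in severe libraries. The 3 groups of each gene did not overlap, and the second was lowest in moderate soil, where its change of -0.95 was not called (adjusted p = 0.141). Without severe replicate 1 that change was called (adjusted p = 0.0214), as in the fit of control and moderate libraries alone (adjusted p = 0.00944). Sobic.002G374100 had 54.4, 45.2 and 47.0 CPM in control, 91.0, 83.6 and 85.7 CPM in moderate, and 308, 80.2 and 80.8 CPM in severe libraries. Sobic.006G056400 had 6.19, 4.11 and 0.758 CPM in control, 8.88, 9.89 and 6.49 CPM in moderate, and 79.5, 34.0 and 6.08 CPM in severe libraries. In Sobic.006G056400 the lowest severe library fell within the control range. The log2 rises in severe against control were 2.94, 1.69, 1.68 and 3.43 in the order given (adjusted p = 0.00376, 0.00571, 0.0132 and 0.00879). Without severe replicate 1 the first 3 were 1.61, 1.09 and 0.71, and all 3 calls held. The moderate changes of Sobic.001G343900 and Sobic.002G374100, 0.94 and 0.83, were not called (adjusted p = 0.339 and 0.267). Without severe replicate 1 both were called (adjusted p = 0.0253 and 0.0036), as in the fit of control and moderate libraries alone. Total-count scaling called that of Sobic.002G374100 too. In Sobic.002G374100 severe replicates 2 and 3 lay below every moderate library.

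Sobic.003G410300 (chromosome 3, 71777501 to 71782156, plus strand) was the TIFY gene that fell most. It had 5.77, 6.59 and 6.67 CPM in control libraries, 9.29, 4.44 and 5.92 CPM in moderate libraries, and 0.190, 0.107 and 0.116 CPM in severe libraries, which held 2 reads each. Severe libraries stood far below the rest, and control and moderate overlapped. The log2 change in severe against control was -5.53 (SE 1.11, adjusted p = 2.97e-05).

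Sobic.001G259700 was the second to fall, with 5.24, 18.0 and 2.68 CPM in control, 2.86, 3.23 and 1.67 CPM in moderate, and 2.57, 0.374 and 0.984 CPM in severe libraries. The log2 change of -2.77 in severe against control (adjusted p = 0.0157) rested on control replicate 2, without which it was -1.66 and not called (adjusted p = 0.0822). The gene belongs to a set of 5 TIFY genes on the plus strand of chromosome 1, from Sobic.001G259300 at 31035454 to Sobic.001G259900 at 31385784. The row is broken by 1 other gene between Sobic.001G259400 and Sobic.001G259600 and by 2 between Sobic.001G259700 and Sobic.001G259900. Of the 5 genes, 2 had no read in any library, and Sobic.001G259900 had 13 reads over the 9 libraries and was not tested. Sobic.001G259600, at 0.502 to 3.81 CPM, was not called in any comparison. The fourth untested TIFY gene, Sobic.001G276900, had 3 reads, all in severe libraries.

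Sobic.006G244800, the last of the 3 tested TIFY genes not called in severe against control, averaged 88.1 ± 5.31 CPM in control, 124 ± 10.6 CPM in moderate and 117 ± 16.8 CPM in severe leaves. Its stressed libraries all lay above its control libraries, yet the changes of 0.49 in moderate (adjusted p = 0.123) and 0.41 in severe against control (adjusted p = 0.0926) were not called. The moderate change was called without severe replicate 1 (0.49, adjusted p = 0.0314), under total-count scaling (0.97, adjusted p = 0.0189) and in the fit of those groups alone (0.51, adjusted p = 0.00984). The severe one was called without severe replicate 3 (0.49, adjusted p = 0.0461) and by DESeq2 (0.54, adjusted p = 0.0189).

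**Figure D4:**
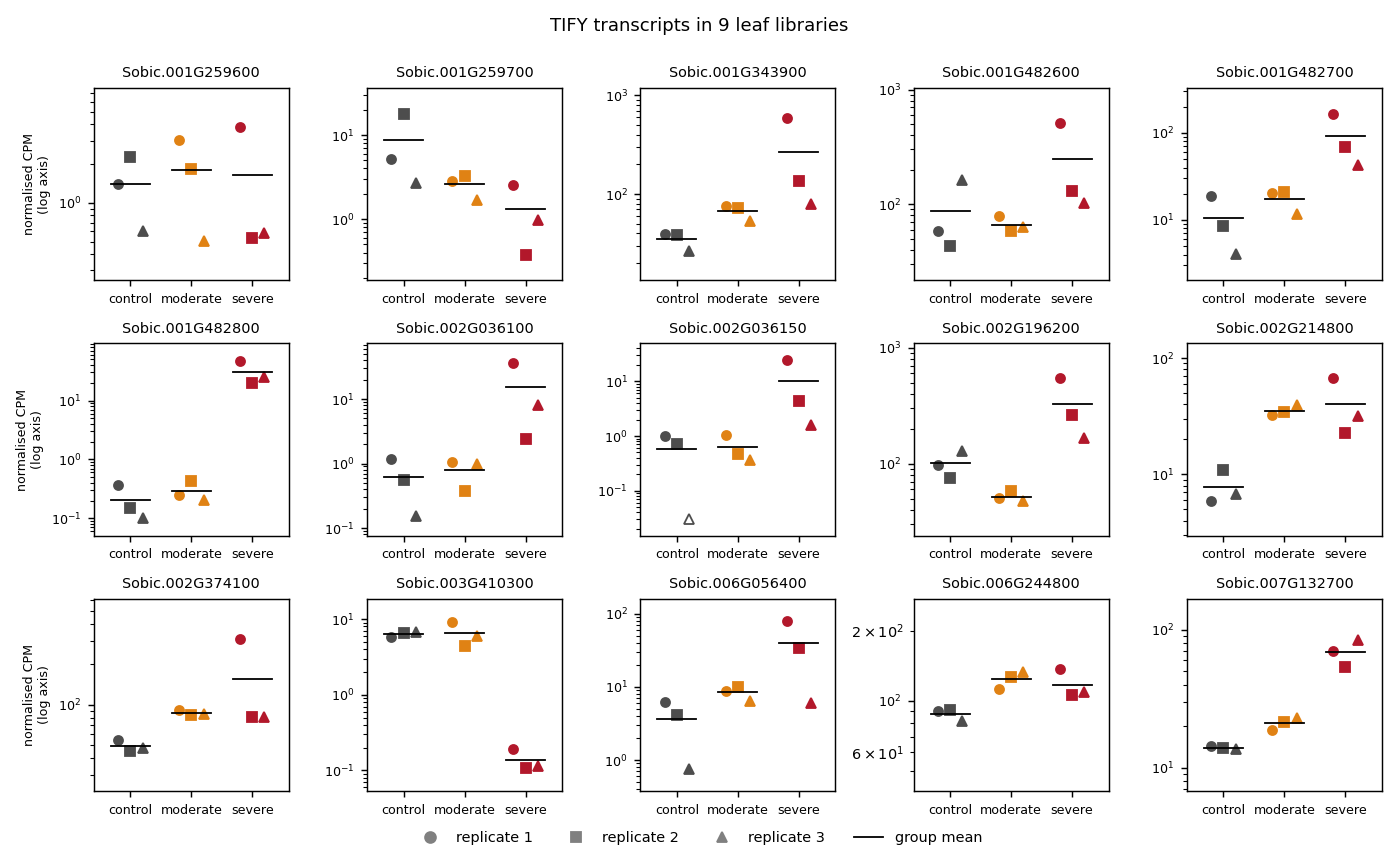
Normalised CPM (log axis) of each tested TIFY gene in the control, moderate and severe libraries, with 1 symbol per library, a line at the group mean and an open symbol for a count of 0. Sobic.001G482800 is at 0.101 to 0.437 CPM in control and moderate libraries and at 20.0 to 46.6 CPM in severe libraries, while Sobic.003G410300 has the reverse pattern.

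The severe libraries did not agree on the height of the TIFY rise. Severe replicate 1 was the highest of the 3 in 14 of 15 tested TIFY genes, against 36.0% of all tested genes, and in 4 of 12 lipoxygenases. The exception among TIFY genes was Sobic.007G132700, highest in severe replicate 3. In the median TIFY gene severe replicate 1 held 3.79 times the mean of the other severe libraries, against 0.944 times for lipoxygenases and 0.836 times for all tested genes. The low normalisation factor of that library raises its normalised values. With counts scaled to library totals alone, severe replicate 1 was still highest in 11 of 15 TIFY genes, against 15.4% of all tested genes, with a median ratio of 2.06 against 0.467. On the normalised scale the 4 lipoxygenases highest in severe replicate 1 were Sobic.001G125800 (1153 CPM against 218 and 74.8), Sobic.006G095600, Sobic.001G483400 and Sobic.001G125700. Sobic.001G125700 differed little there (25.2 CPM against 24.4 and 20.0), and Sobic.001G125900 read 532, 644 and 624 CPM. Whether other differences of that library go with its TIFY values was not tested.

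**Figure D5:**
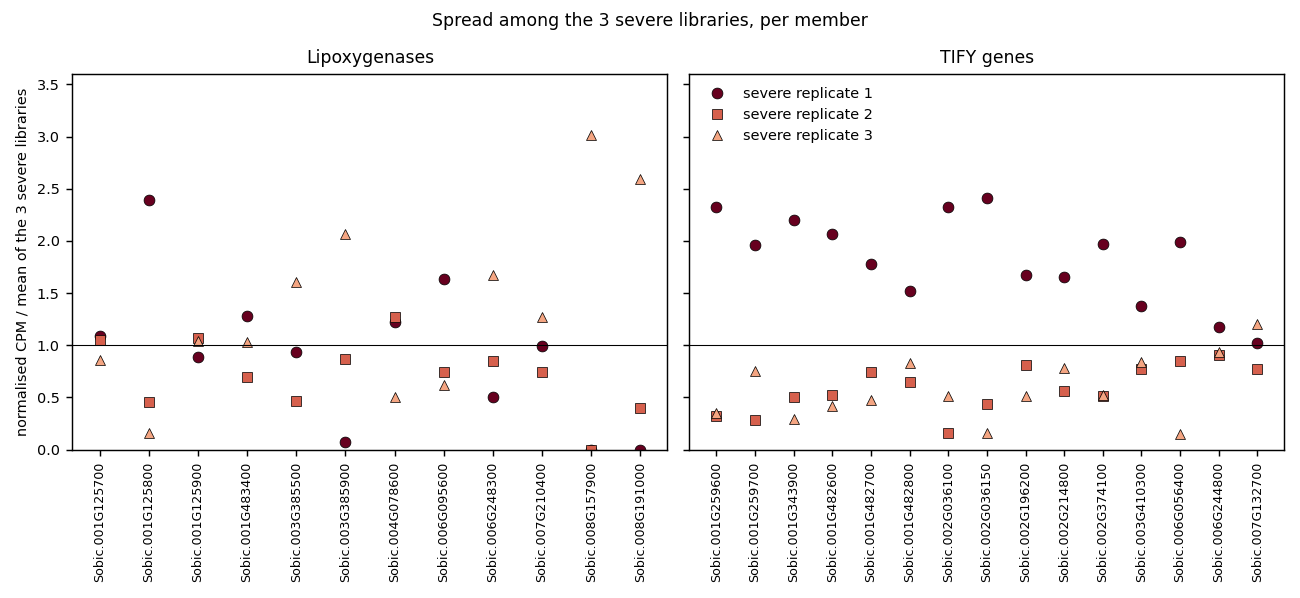
Normalised CPM of each tested member in the 3 severe libraries, divided by the mean of the 3 (line at 1). Severe replicate 1 (circles) is the highest symbol in 14 of 15 TIFY genes and in 4 of 12 lipoxygenases.

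Severe against moderate asked whether the stronger stress moved these genes further. Of the lipoxygenases 6 were higher and 2 lower in severe than in moderate leaves, and of the TIFY genes 9 and 1, beside 63.2% of all genes called (29.6% higher and 33.6% lower). The median log2 change was 0.83 for lipoxygenases and 1.90 for TIFY genes, against -0.20 for all tested genes. Under total-count scaling the splits were 3 higher and 3 lower for lipoxygenases and 6 higher and 3 lower for TIFY genes. Beside them, 3729 genes were higher and 10094 lower among all 22356 tested. The medians under that scaling were -0.08 and 0.86, against -0.98 for all.

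Calls that held without any single library were 5 lipoxygenases and 6 TIFY genes. Sobic.001G125900 rose by 3.24 (adjusted p = 3.85e-05), Sobic.006G248300 by 4.03 (adjusted p = 0.000207) and Sobic.007G210400 by 2.52 (adjusted p = 0.00548). Sobic.004G078600 and Sobic.008G191000 changed by -4.67 (adjusted p = 0.000116) and -5.87 (adjusted p = 0.000277). Of the TIFY genes, Sobic.001G482800 rose by 6.66, Sobic.002G196200 by 2.64, Sobic.001G482700 by 2.37 and Sobic.007G132700 by 1.72. Sobic.002G036100 rose by 4.26, or 2.68 without severe replicate 1, and Sobic.003G410300 changed by -5.58.

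The remaining 7 calls were lost on leaving out some libraries. For Sobic.001G125800 these were moderate replicates 1 and 2 and severe replicate 1, without which its change of 2.65 was 0.93. For Sobic.006G095600 they were moderate replicates 2 and 3, and without severe replicate 1 its change of 1.18 was 0.62. For Sobic.001G343900 and Sobic.001G482600 they were any moderate library and severe replicate 1, without which changes of 2.00 and 1.90 were 0.68 and 0.80. For Sobic.002G036150 they were moderate replicates 2 and 3 and severe replicate 1, without which its change of 4.02 was 2.28. Sobic.003G385500 and Sobic.006G056400, with changes of 1.70 and 2.24, were each lost in 7 of the 9 fits with 1 library left out, and the change of Sobic.006G056400 was 1.25 without severe replicate 1. Total-count scaling ended 6 of these 7 calls as well, all but that of Sobic.002G036150.

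Only 2 labels from a list of 7 for the rest of the jasmonate path occur in the table. Oxidored_FMN marks old yellow enzymes, the family of the oxophytodienoate reductases that act after the lipoxygenase step, and Thiolase_N marks thiolases, the family of the enzyme that closes each round of side-chain shortening. Both families also hold enzymes outside jasmonate synthesis, which the labels do not tell apart. Of 9 old yellow enzymes tested (14 listed), 3 rose and 2 fell in severe against control, so 55.6% were called, beside 66.5% of all genes. Their median log2 change there was -0.05, against -0.19 over all tested genes. Total-count scaling gave 3 higher and 3 lower, beside 5497 higher and 7888 lower among all 22356 genes tested. In moderate against control 1 rose and 0 fell, beside 17.1% of all genes. All 5 thiolases rose in severe against control, beside 31.6% of all genes higher and 66.5% called, and 4 of them were called higher under total-count scaling. In moderate against control 1 thiolase rose and 0 fell, beside 17.1% of all genes. Total-count scaling called 3 higher there, beside 3707 higher and 704 lower among all 22356 genes tested.

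Sobic.007G151100, an old yellow enzyme, averaged 7.08 ± 0.718 CPM in control, 28.2 ± 7.57 CPM in moderate and 85.2 ± 25.1 CPM in severe leaves. Its log2 rise was 1.99 in moderate (adjusted p = 0.00377) and 3.59 in severe against control (adjusted p = 2.98e-05). Sobic.001G348100, a thiolase, averaged 16.8 ± 1.73 CPM in control, 56.0 ± 6.40 CPM in moderate and 123 ± 7.43 CPM in severe leaves. It rose by 1.73 in moderate (adjusted p = 0.00156) and by 2.87 in severe against control (adjusted p = 1.56e-05). Both genes stepped up with the salt content. The old yellow enzymes Sobic.006G091900 and Sobic.006G091600 fell by 1.95 (adjusted p = 0.000269) and 1.96 (adjusted p = 0.01) on the log2 scale in severe against control.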

How the data were processed

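Leaf RNA of 9 sorghum libraries, 3 per group, was analysed from 1 table of 35281 genes. The authors deposited raw read counts and FPKM values per gene and library. The authors also deposited a log2 fold change, a p-value and an adjusted p-value for each pair of groups. HISAT2 2.0.5, an aligner, and DESeq2 1.20.0, a count test, are named in the submitters' processing notes. The genome build, the counting program and the strand setting are not stated in the labels or the table, while gene identifiers carry the suffix v3.2.

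Samples were grouped by their labels. Raw counts were fitted with edgeR 4.0.16 in R 4.3.3. Low-count genes were removed (filterByExpr, 22356 genes kept), libraries were scaled by TMM, and the quasi-likelihood test was run on all 9 libraries with 1 mean per group. Adjusted p-values follow Benjamini and Hochberg over all genes tested, at a threshold of 0.05. Standard errors were derived from each log2 change and its unadjusted p by a normal approximation, and 95% intervals follow from them. The test was tried on simulated counts first. Alternatives were RLE size factors, total-count scaling, no filter, only the groups compared, a replicate block, each library left out, DESeq2 1.42.0 and limma 3.58.1 on log2(FPKM + 1).

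The members, lists and tests were chosen with earlier results of these data known. Library values were given for the members with the smallest adjusted p per direction, for those with the highest level, for those called in opposite directions and for further members. Of 7 family labels listed for the rest of the jasmonate path, 5 held no gene, and no gene description matched the list. The path genes named are at most 2 per direction with the smallest adjusted p. Dividing-cell and leaf marker labels held no gene either. None of the members overlapped another gene of the table. Sequences were not used here.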

Additional observations from a re-analysis of the deposited data

Results flagged for a closer look

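The lipoxygenase Sobic.006G248300 stood out because it was called against control in both soils with opposite signs, and was also called between the soils. Its log2 change was -1.69 in moderate against control (adjusted p = 0.0396, edgeR's quasi-likelihood test) and 2.34 in severe against control (adjusted p = 0.00183). The test of the difference between the 2 effects, which equals severe against moderate, gave 4.03 (SE 0.94, adjusted p = 0.000207), with all 3 severe libraries above all 3 moderate libraries. The difference was called in every alternative run, at 3.37 to 4.34 in the fits of counts and at 1.67 by limma on log2(FPKM + 1). By contrast, the fall in moderate leaves was lost whenever a control or moderate library was left out. It was also lost under total-count scaling (-1.21, adjusted p = 0.204) and by limma (-0.41, adjusted p = 0.267). No other member was called in both soils with opposite signs. Groups of 3 libraries are too small for the test of single outlying libraries.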

How the results depend on the processing

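Counts of called members in severe against control stayed within 1.5 times under every alternative run (9 to 11 lipoxygenases, 11 to 14 TIFY genes). In moderate against control 3 lipoxygenases and 1 TIFY gene were called. A fit of those groups alone called 5 and 6, total-count scaling called 4 TIFY genes, and DESeq2 called 2. Over all 22356 genes tested, total-count scaling called 3707 higher and 704 lower. Such totals are not given here for the other alternatives. Leaving out single libraries gave 2 to 5 lipoxygenases and 1 to 6 TIFY genes there, and 5 to 9 and 6 to 11 in severe against moderate, beside 8 and 10 with all libraries. The cause of these shifts was not tested. Among changes called under at least 1 setting, sign changes occurred only in 3 values of severe against moderate that were not called with all libraries. Sobic.002G374100, at 0.85, was -0.22 under total-count scaling and ranged from -0.12 to 1.16 with single libraries left out. Sobic.008G157900, at -0.46, ranged from -6.67 to 0.23 in the same way. Sobic.006G244800, at -0.08, was 0.05 with RLE size factors, 0.05 by DESeq2 and 0.02 by limma.

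The labels state no pairing of libraries by replicate number, and whether the numbers pair them was not settled here. Deviations from group means correlated at -0.0355 to 0.258 between 9 same-numbered pairs and at -0.251 to 0.118 between 18 others, and not every library correlated best with its own number. With a replicate block 3 lipoxygenases and 1 TIFY gene were called in moderate against control, 10 and 12 in severe against control, and 7 and 10 between the stressed groups. In moderate against control the 3 lipoxygenases were all higher, since the call of Sobic.006G248300 was lost (-1.74, adjusted p = 0.0533) and Sobic.003G385500 was gained (1.91, adjusted p = 0.0483). Between the stressed groups Sobic.001G125800 was lost (1.92, adjusted p = 0.0859). Genes near 3 counts per library, such as Sobic.008G157900, are limited by depth.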

Other observations

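The authors' deposited table called more members than edgeR in moderate against control, at its adjusted p under 0.05. There it listed 5 lipoxygenases as higher and 1 as lower, and 5 TIFY genes as higher and 2 as lower. In severe against control the authors' deposited table listed 8 lipoxygenases as higher and 2 as lower, and 10 TIFY genes as higher and 2 as lower. In severe against moderate the authors' deposited table listed 6 and 2 lipoxygenases and 9 and 1 TIFY genes. It included each of the 3, 10 and 8 lipoxygenases and 1, 12 and 10 TIFY genes that edgeR called in these comparisons. How many of all genes the authors' test called is not given here, so its larger counts are not read as particular to these families.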
